A study of Mus musculus with 6 samples.

Results

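Glycolysis converts glucose to pyruvate, and the genes described here are those of its enzymes together with the transporters that carry glucose in and lactate out. They were taken by symbol from a fixed list of 39 names, which holds the glucose transporters, the glycolytic enzymes, the PFKFB enzymes that set the level of an activator of glycolysis, the lactate dehydrogenases and transporters, and the PDK kinases that restrain pyruvate oxidation. One of the names, Pkm2, is an older name of Pkm, and the row of Tigar was found under its older symbol 9630033F20Rik, which left 38 genes of the 24015 in the count table. Of these, 36 passed the filter on low counts, among 13284 genes that did. Slc2a4, the insulin-responsive glucose transporter, and Fbp1, a gluconeogenic phosphatase, had at most 9 and 8 counts per sample and were not tested.

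Poly(A) RNA was sequenced from primary cancer-associated fibroblasts (CAFs), which are fibroblasts cultured from tumour stroma. The cells came from mammary tumours of NeuT transgenic mice, which carry an activated rat Her2/neu oncogene, on a BalbC background, and were grown in high glucose medium with serum. The 3 control samples received control siRNA and the 3 others anti-Stat3 siRNA, on nanoparticles at 1 ug/mL for 72 hours, so transgene, strain and medium are shared by both groups. The comparison asks which transcripts depend on STAT3, a transcription factor that carries cytokine signals such as that of IL-6 to the nucleus. The labels used here do not say how many mice or separate cultures stand behind the samples. So p-values speak only of the scatter among these samples, which may not be that among mice.

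In the cytosol, hexokinases trap glucose as glucose 6-phosphate, phosphofructokinase commits it to glycolysis, and the lower enzymes yield ATP, NADH and pyruvate. Lactate dehydrogenase reduces pyruvate to lactate, which leaves the cell through monocarboxylate transporters, while PDK kinases inactivate pyruvate dehydrogenase and so keep pyruvate out of the mitochondria. Many of these genes are known targets of the hypoxia-inducible factor HIF-1, and CAFs are known for lactate release in some tumours.

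Total counts were 12998168 to 18683852 per sample. Stat3, the targeted gene, had 220, 359 and 404 CPM (each count per TMM-scaled library size, on a common total) in control samples 1 to 3 and 34.7, 81.8 and 78.8 CPM in anti-Stat3 samples 1 to 3, a mean log2 change of -2.38 ± 0.27 (SD, n = 3 pairs). Control and anti-Stat3 samples that share a number had shared deviations across genes and are treated as pairs 1 to 3. All 12 fibroblast markers of a fixed list passed the filter, with a summed level of 33590, 87960 and 102900 CPM under control siRNA against 38110, 60950 and 75330 CPM under anti-Stat3 siRNA, so higher in pair 1 and lower in pairs 2 and 3. Most of this sum came from Col1a1, Col1a2, Col3a1 and Fn1. Across the 12 genes 2 were lower in all 3 pairs (Pdgfra and Dcn) and 2 were higher in all 3 (Vim and S100a4). The cultures of pair 1 differed from the others in macrophage markers. The 13 such genes summed to 47.4, 1675 and 2258 CPM under control siRNA against 42.7, 1614 and 2592 CPM under anti-Stat3 siRNA. Epithelial markers, 10 genes, summed to 174, 472 and 79.0 CPM and 169, 464 and 80.7 CPM. Summed endothelial (6 genes), muscle (7) and fat cell (5) markers stayed at or below 34.3, 76.1 and 14.3 CPM, with Ckm, Lep and Cidec at a count of 0 in all samples. No marker of these lists was called in DESeq2 when pairs were blocked. In bulk samples fewer cells of a type and less RNA per cell cannot be told apart, and the part of the cell mixture in the results below was not tested.

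The genes of glycolysis and lactate export were mostly lower after anti-Stat3 siRNA, by modest amounts. The glucose transporter Slc2a1, the regulator Pfkfb3, the enolase Eno2 and the kinase Pdk1 were called lower in DESeq2 with the pair as blocking term. So were the lactate transporters Slc16a3 and Slc16a1. With all 3 pairs, neither edgeR nor limma-voom with that term called any of them, although edgeR fitted falls of similar size. In 20 of the 36 tested genes (55.6%) the level was lower in all 3 pairs, against 16.5% of all tested genes. It was higher in all 3 pairs in 3 genes (8.33%), against 17.3%, and mixed in 13. With library totals in place of TMM scaling, Hk1, Aldoa and Pgm1 were no longer lower in all pairs. The median log2 change over the 36 genes was -0.17, -0.34 and -0.20 in pairs 1 to 3, where the median over all tested genes was 0.0011, 0 and 0.012. As a share of all counts, the 38 genes went from 0.595% to 0.509% in pair 1, from 0.547% to 0.403% in pair 2 and from 0.745% to 0.675% in pair 3. Most of these counts came from Pkm, Aldoa and Ldha, which were not called in any fit.

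**Figure D1:**
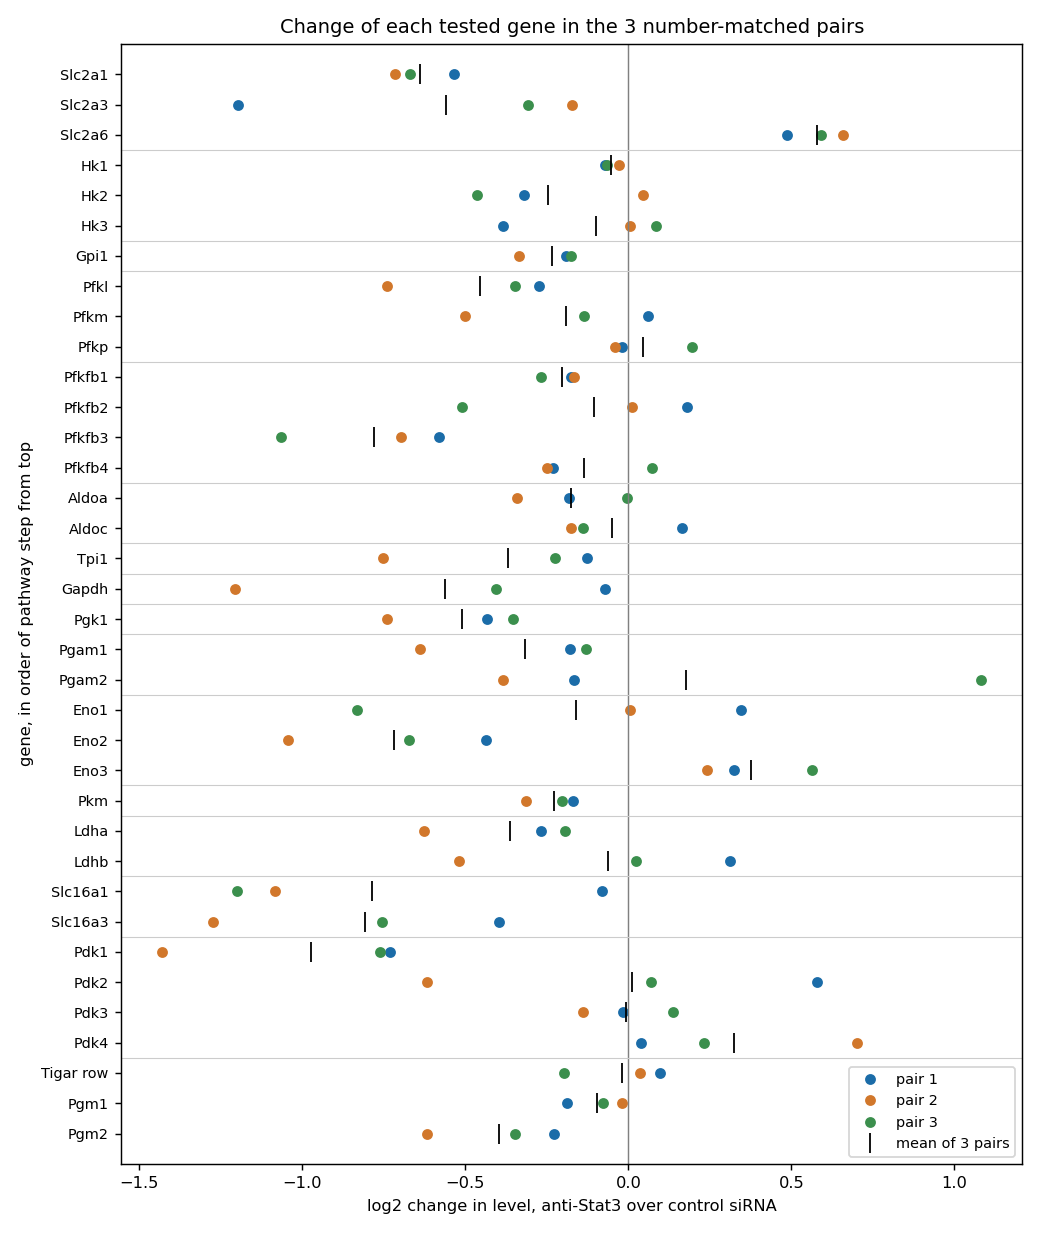
Log2 change in level, anti-Stat3 over control siRNA, of each of the 36 tested genes in pairs 1 to 3 (coloured points) with their mean (black mark), in order of pathway step from glucose transport to side enzymes. Points of all 3 pairs lie left of 0 for 20 genes and right of 0 for Slc2a6, Eno3 and Pdk4.

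With the group as its only term, the quasi-likelihood test of edgeR called none of the 13284 genes at an adjusted p under 0.05 (0%), so 0 of the 36. At an unadjusted p under 0.05 it had 235 genes, among them 4 lower and 1 higher of the 36, and DESeq2 with the group alone called 17 genes, none of them glycolytic. With the pair as a block, edgeR called 8 genes (0.0602%), again 0 of the 36. DESeq2 with the block called 104 genes lower (0.783%) and 116 higher (0.873%), and 6 of the 36 were among those lower (16.7%) and 0 among those higher. At an unadjusted p under 0.05 in blocked edgeR, 11 genes (30.6%) were lower, against 5.2% of all genes, and 2 (5.56%) were higher, against 5.63%. The 6 calls needed both pair 2 and pair 3, and calls over all genes also depended on the pairs. Without pair 1, blocked edgeR and blocked DESeq2 called 704 and 432 of 13529 genes. They called 3 and 14 of 13340 without pair 2, and 0 and 20 of 13576 without pair 3. Without pair 1, both tests called the 6 genes (adjusted p at most 0.0173 in edgeR and 0.0100 in DESeq2). Without pair 2 or without pair 3 neither test called any of them, with adjusted p from 0.106 to 1 in DESeq2 and from 0.543 to 1.00 in edgeR, although the log2 changes lay between -1.10 and -0.56.

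At the point of glucose entry, Slc2a1, the widespread basal glucose transporter GLUT1, had 321, 235 and 347 CPM under control siRNA against 222, 143 and 218 CPM under anti-Stat3 siRNA. Every anti-Stat3 sample lay below every control sample, and the 3 pair changes were alike, at -0.53, -0.72 and -0.67. In blocked DESeq2 Slc2a1 fell by 0.64 on the log2 scale (SE 0.13, adjusted p = 2.9e-04), to 64.2% of the control level, and in blocked edgeR the adjusted p was 0.157. Slc2a3, the high-affinity transporter GLUT3, had 1.21 CPM per kilobase of exon in the controls against 92.3 for Slc2a1, with 4.49 to 5.34 CPM under control siRNA against 2.25 to 3.97 CPM under anti-Stat3 siRNA, again without overlap (blocked DESeq2 adjusted p = 0.864). Slc2a6, a transporter found in lysosomal membranes, was higher in all 3 pairs, with 7.57, 8.62 and 13.9 CPM under control siRNA against 10.7, 13.7 and 21.0 CPM under anti-Stat3 siRNA. Its log2 changes were 0.49, 0.66 and 0.59, the groups overlapped, and it did not pass (0.59 ± 0.21, SE, adjusted p = 0.155).

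Hexokinases showed no call. Hk1, the main hexokinase here per kilobase of exon (41.5 CPM per kb in the controls, against 14.7 for Hk2), had 169, 179 and 256 CPM under control siRNA against 161, 175 and 244 CPM under anti-Stat3 siRNA. Its log2 change was -0.05 ± 0.12 in blocked DESeq2 (SE, adjusted p = 0.999), among the smallest differences in the list. Hk2, the inducible hexokinase, had a log2 change of -0.25 ± 0.16 (SE, adjusted p = 0.881) with pair changes of -0.32, 0.04 and -0.46. Hk3, a hexokinase known from myeloid cells, had 0.20, 8.78 and 18.9 CPM under control siRNA against 0.13, 8.82 and 20.1 CPM under anti-Stat3 siRNA, so its level differed between pairs more than between treatments, in the same order as the macrophage markers.

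Gpi1, which converts glucose 6-phosphate to fructose 6-phosphate, had 251, 221 and 332 CPM and then 220, 176 and 294 CPM, a log2 change of -0.23 ± 0.13 that did not pass (blocked DESeq2, adjusted p = 0.714). Among the phosphofructokinases, which carry out the committed step, Pfkl had the highest level per kilobase. Its levels were 203, 289 and 433 CPM under control siRNA against 168, 173 and 340 CPM under anti-Stat3 siRNA, lower in each pair but with overlapping groups. The log2 change of Pfkl was -0.45 ± 0.15 (SE, adjusted p = 0.103), while those of Pfkm and Pfkp were -0.19 ± 0.17 and 0.05 ± 0.14 (both adjusted p = 0.999).

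Pfkfb3 makes fructose 2,6-bisphosphate, the strongest activator of phosphofructokinase. It had 81.3, 87.6 and 127 CPM under control siRNA against 54.3, 54.0 and 60.8 CPM under anti-Stat3 siRNA. The anti-Stat3 samples lay close together and all below the lowest control. Pfkfb3 fell by 0.78 on the log2 scale in blocked DESeq2 (SE 0.16, adjusted p = 3.8e-04), to 58.2% of control, with an adjusted p of 0.145 in blocked edgeR. The other PFKFB enzymes did not pass. The log2 changes of Pfkfb4 and Pfkfb2 were -0.14 ± 0.17 and -0.10 ± 0.20 (SE, adjusted p = 0.999 each), and Pfkfb1 stayed near 2 CPM in all samples, between 1.92 and 2.64.

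**Figure D2:**
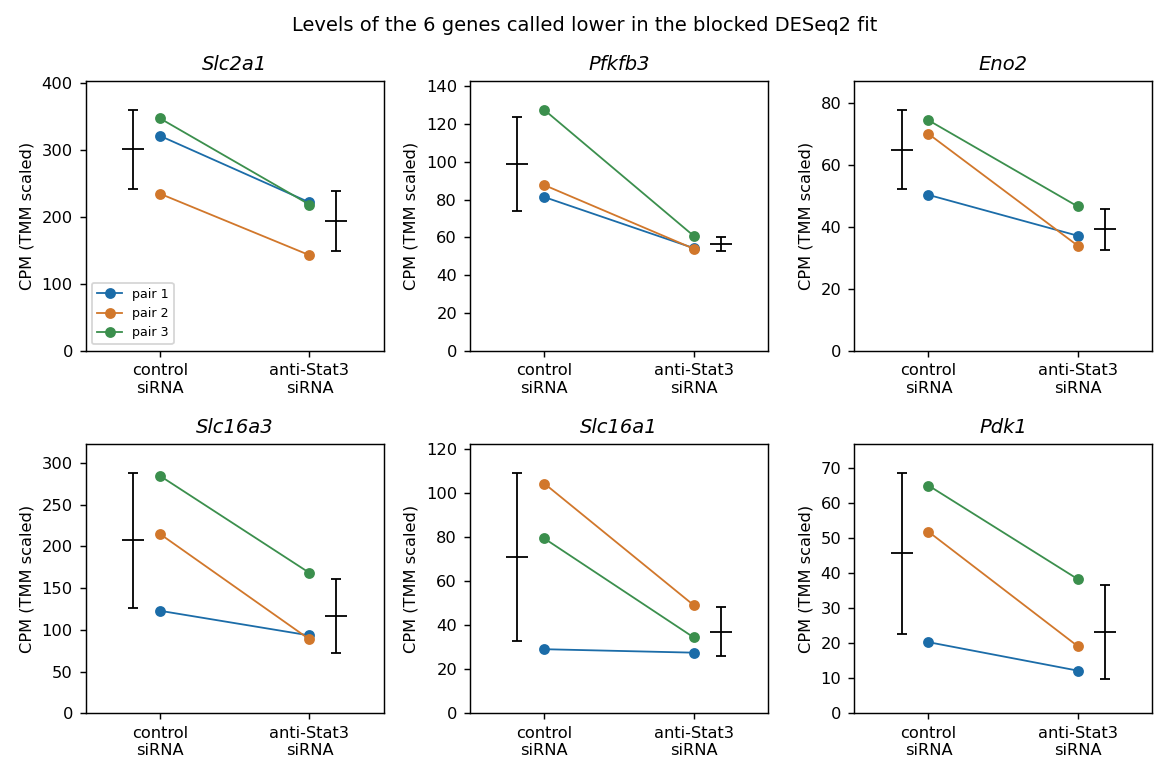
CPM (TMM scaled, axes from 0) of Slc2a1, Pfkfb3, Eno2, Slc16a3, Slc16a1 and Pdk1 in each control and anti-Stat3 sample, with lines joining the samples of a pair and black bars for the mean and SD of each group (n = 3). The groups do not overlap for Slc2a1, Pfkfb3 and Eno2, and for Slc16a1 the line of pair 1 is nearly flat.

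The enzymes that split and oxidise the sugar gave no call. Aldoa, the main aldolase, had 1009, 876 and 1382 CPM under control siRNA against 889, 692 and 1377 CPM under anti-Stat3 siRNA, a log2 change of -0.17 ± 0.13 (SE, blocked DESeq2, adjusted p = 0.964). Aldoc, an aldolase best known from brain, varied with the pair, from 1.22 CPM in control sample 1 to 39.1 CPM in control sample 2 (-0.10 ± 0.22, SE, adjusted p = 0.999). Tpi1, which interconverts the triose phosphates, had 329, 437 and 629 CPM and then 301, 260 and 539 CPM. Tpi1 was lower in each pair and most so in pair 2, with log2 changes of -0.13, -0.75 and -0.22 (-0.37 ± 0.16, SE, adjusted p = 0.405).

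Rows of Gapdh, Pgk1, Pgam1 and Eno1 were low for genes that most cells express strongly. Gapdh, the enzyme that makes NADH in glycolysis, had 43 to 82 counts per control sample, 2.91 to 4.91 CPM, and Eno1, the widespread enolase, had 12 to 45 counts. These genes share much of their sequence with other entries of the mouse annotation. Of the 50-base windows of its longest coding transcript, 82.5% occurred in at least 1 of 218 other genes for Gapdh, 72.2% in 9 genes for Eno1, 68.0% in 5 for Pgk1 and 41.5% in 4 for Pgam1. Pkm (34.4%), Pfkfb2 (25.1%), Ldhb (27.0%), Gpi1 (19.3%), Ldha (16.6%) and Aldoa (13.5%) shared less, and 23 of the 38 genes shared no window. The sources used here do not give how shared reads were counted, and the part of sharing in these low counts was not tested, so the levels of these 4 rows are not compared with those of other genes. Slc2a1, Slc16a1, Slc16a3 and Pdk1 shared no window, Eno2 0.0364% and Pfkfb3 0.61%.

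**Figure D3:**
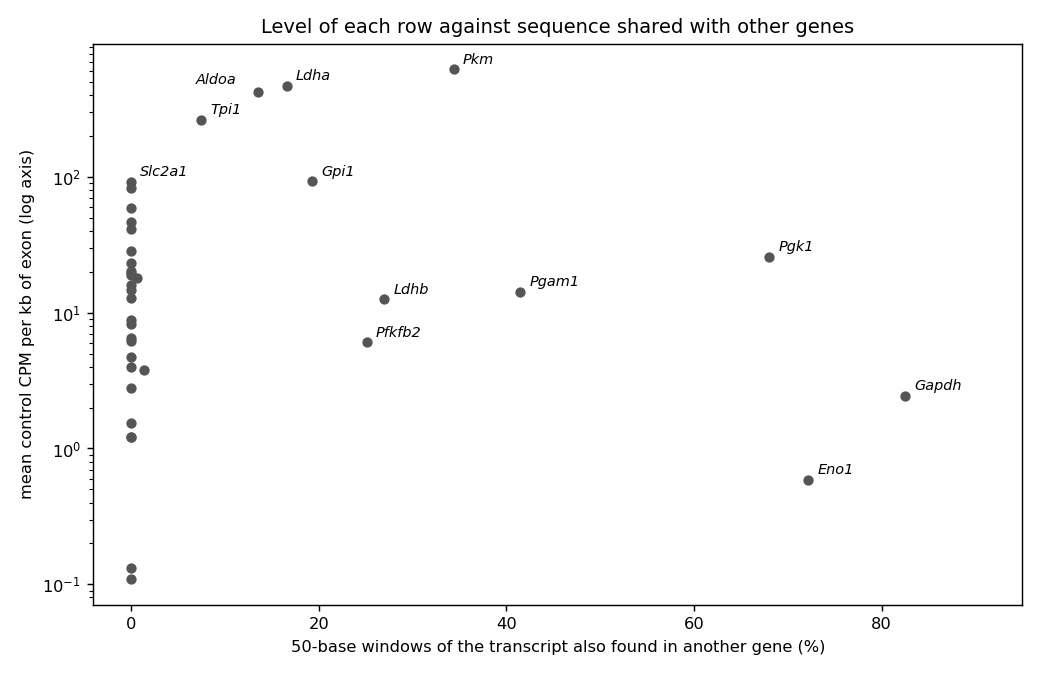
Mean control level of each of the 38 rows in CPM per kilobase of exon (log axis) against the percentage of 50-base windows of its transcript that also occur in another gene. Gapdh, Eno1 and Pgk1 lie at the right with 82.5%, 72.2% and 68.0% of windows shared, where the height shows the level of the row and not of the gene.

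Within those limits, Pgk1, which makes the first ATP of the pathway, was lower in every anti-Stat3 sample (38.0, 26.5 and 35.6 CPM) than in every control (51.4, 44.4 and 45.6 CPM). Its log2 change of -0.51 ± 0.16 (SE) did not pass in blocked DESeq2 (adjusted p = 0.0921). The log2 change was -0.57 ± 0.40 for Gapdh and -0.31 ± 0.19 for Pgam1, the phosphoglycerate mutase (SE, adjusted p = 0.917 and 0.837). Gapdh, a common reference gene in PCR, had 2.76, 1.28 and 3.68 CPM under anti-Stat3 siRNA, and Pgam1 had 22.3, 21.2 and 32.3 CPM and then 19.7, 13.5 and 29.5 CPM. Pgam2, the muscle form, had 1.02 to 2.30 CPM in all samples. The 7 muscle markers summed to 42.6 to 76.1 CPM, mostly from Acta1 (15.2 to 45.5 CPM) and Des (2.84 to 47.4 CPM), with Actn3 at 2.35 to 6.29 CPM and Ckm at a count of 0, and their part in the level of Pgam2 was not tested.

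Of the enolases, Eno2, the form known from neurons, had 50.4, 70.1 and 74.5 CPM under control siRNA against 37.1, 33.9 and 46.6 CPM under anti-Stat3 siRNA, with no overlap. Eno2 fell by 0.72 in log2 in blocked DESeq2 (SE 0.17, adjusted p = 0.0050), to 60.8% of control (adjusted p = 0.161 in blocked edgeR). Eno3, known from muscle, was higher in each pair, with 31.97, 31.78 and 32.11 CPM under control siRNA against 40.1, 37.6 and 47.5 CPM under anti-Stat3 siRNA. Groups were apart with higher levels after anti-Stat3 siRNA in 1 of the 36 genes (2.78%), Eno3, against 2.45% of all genes, and it did not pass (0.38 ± 0.16, SE, adjusted p = 0.356). Groups apart with lower levels were found in 6 of the 36 genes (16.7%), Slc2a1, Slc2a3, Pfkfb1, Pfkfb3, Pgk1 and Eno2, against 2.23% of all genes.

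Pkm and Ldha make pyruvate and reduce it to lactate. Outside the rows set aside above, they had the highest levels per kilobase of exon in the list. These were 617 and 470 CPM per kb in the controls, with the shared sequence given above. Aldoa followed at 425, with an exon length of 2565 bases against 1549 for its longest coding transcript. The rank therefore depends on the length used. Pkm had 1764, 1197 and 1852 CPM under control siRNA against 1569, 963 and 1607 CPM under anti-Stat3 siRNA. Ldha had 834, 717 and 1121 CPM and then 692, 464 and 980 CPM. Both were lower in each pair with overlapping groups, and neither passed in blocked DESeq2, with log2 changes of -0.23 ± 0.12 for Pkm and -0.36 ± 0.14 for Ldha (SE, adjusted p = 0.674 and 0.252). Ldhb, the subunit that favours lactate use, had 12.6 CPM per kb against 470 for Ldha, and its log2 changes differed in sign between the 3 pairs (0.31, -0.52 and 0.02).

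**Figure D4:**
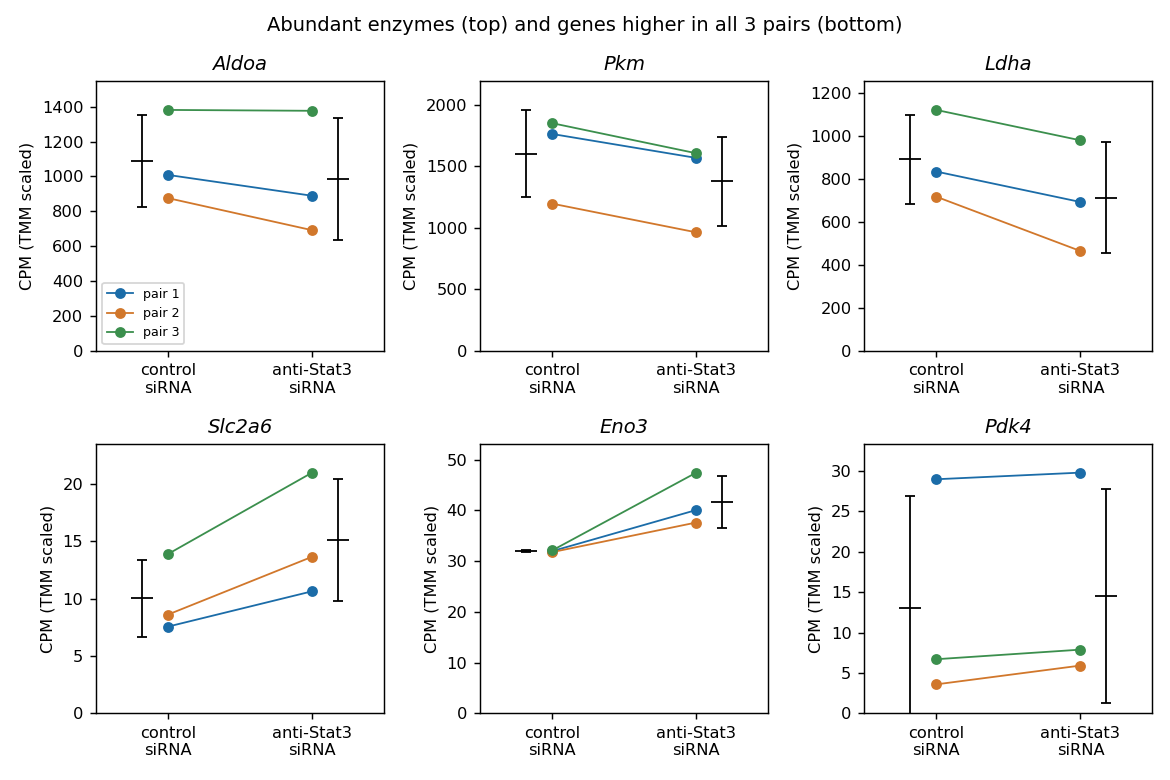
CPM (TMM scaled, axes from 0) by sample, drawn as for the called genes, of Aldoa, Pkm and Ldha (top) and of Slc2a6, Eno3 and Pdk4 (bottom), where the SD bar of the Pdk4 controls is cut at 0. Pkm and Ldha are lower in each pair while their groups overlap, and the 3 anti-Stat3 samples of Eno3 lie above 3 nearly equal controls.

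Both lactate transporters fell in blocked DESeq2. Slc16a3, the lactate exporter MCT4 of glycolytic cells, had 122.9, 214.8 and 284.4 CPM under control siRNA against 93.4, 88.7 and 168 CPM under anti-Stat3 siRNA. Each pair was lower (-0.40, -1.28 and -0.76), but control sample 1 lay below anti-Stat3 sample 3, so the groups overlapped. Slc16a3 fell by 0.81 on the log2 scale in blocked DESeq2 (SE 0.19, adjusted p = 0.0024), with an adjusted p of 0.170 in blocked edgeR. Slc16a1, the widespread transporter MCT1, which carries lactate in either direction, had 29.1, 104 and 79.4 CPM under control siRNA against 27.6, 49.1 and 34.5 CPM under anti-Stat3 siRNA. Pair 1 hardly moved (-0.08), while pairs 2 and 3 changed by -1.08 and -1.20. Slc16a1 fell by 0.80 in blocked DESeq2 (SE 0.23, adjusted p = 0.034; 0.210 in blocked edgeR). Under control siRNA, pair 1 had the lowest levels of both transporters, of the summed fibroblast markers and of the summed macrophage markers. The part of the cell mixture in the levels of both transporters was not tested. In pairs 2 and 3 the summed fibroblast markers were lower under anti-Stat3 siRNA, a sum carried by collagens and Fn1. Of the other fibroblast markers, Pdgfra and Dcn were lower in pairs 2 and 3, and Vim and S100a4 were higher. Pdgfrb, Thy1, Lum and Fap differed in direction between pairs 2 and 3. Bsg, the chaperone that brings both transporters to the cell surface, had a log2 change of -0.22 ± 0.16 (SE, adjusted p = 0.915).

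Pdk1 had the most negative fitted change of the list. It had 20.3, 51.9 and 65.1 CPM under control siRNA against 12.2, 19.2 and 38.3 CPM under anti-Stat3 siRNA, overlapping between the groups, with pair 1 low under both treatments. Pair changes were -0.73, -1.43 and -0.76, and Pdk1 fell by 0.98 on the log2 scale in blocked DESeq2 (SE 0.20, adjusted p = 3.4e-04), to 50.9% of control (adjusted p = 0.149 in blocked edgeR). The other kinases of pyruvate dehydrogenase were not called. Pdk3, the highest per kilobase of the 4 kinases (19.6 CPM per kb in the controls), had 42.3, 36.3 and 46.0 CPM under control siRNA against 41.8, 33.0 and 50.5 CPM under anti-Stat3 siRNA, a log2 change of -0.0047 with an SE of 0.16. Pdk2 had pair changes of 0.58, -0.62 and 0.07. Pdk4, induced by fasting and fatty acids in other tissues, was slightly higher in all 3 pairs, with 29.0, 3.60 and 6.71 CPM under control siRNA against 29.8, 5.92 and 7.90 CPM under anti-Stat3 siRNA (0.30 ± 0.24, SE, adjusted p = 0.972), and its level in pair 1 was several times that of the other pairs. Whether Pdk1 changed more than Pdk3 was not tested.

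Side enzymes of the pathway did not pass. The row of Tigar, a phosphatase that lowers fructose 2,6-bisphosphate, had 12.3 to 16.1 CPM under control siRNA against 12.6 to 17.2 CPM under anti-Stat3 siRNA. RefSeq lists Pgm1 and Pgm2, phosphoglucomutases that link glycolysis to glycogen, as older names of each other, so which enzyme each row holds is uncertain. The Pgm2 row was lower in each pair, from 118, 116 and 185 CPM to 100.2, 75.9 and 146 CPM (-0.40 ± 0.15, SE, adjusted p = 0.185), and the Pgm1 row had a log2 change of -0.09 ± 0.16 (SE, adjusted p = 0.999).

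Promoter sequences are shown for all 6 called genes, with or without a match to ACGTG, letters that HIF-1 is known to bind. Binding was not tested. The windows are the 250 bases before the start in RefSeq (GRCm38.p6, not the build of the counts), written 5′ to 3′ on the strand of the gene, with ACGTG on either strand in capitals. An overlapping match on both strands reads CACGTG, which is also an E-box. For Pfkfb3 and Pdk1, 1 of 2 listed starts is shown.
Slc2a1, chr4:119108495-119108744, plus strand: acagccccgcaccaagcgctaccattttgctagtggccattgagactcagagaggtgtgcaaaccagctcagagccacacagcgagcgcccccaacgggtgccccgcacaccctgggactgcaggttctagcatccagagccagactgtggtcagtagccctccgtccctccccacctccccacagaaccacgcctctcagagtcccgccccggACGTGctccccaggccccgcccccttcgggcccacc
Pfkfb3, chr2:11553930-11554179, minus strand: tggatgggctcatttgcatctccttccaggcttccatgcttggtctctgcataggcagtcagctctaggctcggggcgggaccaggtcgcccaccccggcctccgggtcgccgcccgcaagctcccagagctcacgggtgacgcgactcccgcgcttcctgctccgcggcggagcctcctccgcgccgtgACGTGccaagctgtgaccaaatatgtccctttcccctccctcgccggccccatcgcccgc
Eno2, chr6:124769674-124769923, minus strand: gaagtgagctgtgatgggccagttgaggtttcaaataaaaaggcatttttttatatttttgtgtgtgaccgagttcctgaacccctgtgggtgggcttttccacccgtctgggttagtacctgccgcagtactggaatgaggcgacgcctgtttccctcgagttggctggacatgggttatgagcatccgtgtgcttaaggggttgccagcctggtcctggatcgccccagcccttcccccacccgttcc
Pdk1, chr2:71872974-71873223, plus strand: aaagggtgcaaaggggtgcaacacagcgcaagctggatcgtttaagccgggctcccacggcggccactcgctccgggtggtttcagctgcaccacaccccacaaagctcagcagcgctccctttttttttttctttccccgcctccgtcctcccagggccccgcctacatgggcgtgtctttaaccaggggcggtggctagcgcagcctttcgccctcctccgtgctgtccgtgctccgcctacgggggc
Slc16a1, chr3:104638414-104638663, plus strand: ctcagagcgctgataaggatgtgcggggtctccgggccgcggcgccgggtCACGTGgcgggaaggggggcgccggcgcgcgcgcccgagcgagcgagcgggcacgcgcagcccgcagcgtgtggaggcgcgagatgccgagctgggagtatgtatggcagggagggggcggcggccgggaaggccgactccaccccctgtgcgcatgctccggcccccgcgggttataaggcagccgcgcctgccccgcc
Slc16a3, chr11:120948817-120949066, plus strand: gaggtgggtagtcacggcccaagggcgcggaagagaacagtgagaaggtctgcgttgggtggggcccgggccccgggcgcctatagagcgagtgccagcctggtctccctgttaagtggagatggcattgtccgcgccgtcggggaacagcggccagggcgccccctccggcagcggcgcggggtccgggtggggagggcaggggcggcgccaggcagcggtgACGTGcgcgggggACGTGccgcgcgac
The match begins 36 bases before the start in Slc2a1 and 60 before it in Pfkfb3. Slc16a3 holds 2 matches, 27 and 14 bases before the start, and Slc16a1 holds 1 site read on both strands, at 200 and 199. For Slc16a1 and Slc16a3 the bases after the start were not found near the start of the longest coding GENCODE transcript. Their positions therefore hold for the RefSeq start only. The Pfkfb3 window not shown holds 1 site read on both strands, at 53 and 52. The window of Eno2 and both listed windows of Pdk1 held no match. Over all 32851 windows in the table, 16.6% held ACGTG, and 18.5% of 27025 genes had it in at least 1 window. These shares are over all genes with an entry, tested here or not. Of the 35 tested genes with an entry, 17 had it (48.6%), 4 of the 6 called and 13 of the 29 not called (44.8%). A gene with more windows has more places for a match, and by window 21 of the 54 of these 35 genes held it (38.9%). The palindrome TTCNNNGAA, a general STAT motif, was in no window of the 6 called genes and in those of 2 of the 35, against 8.13% of all genes. Base composition of the windows was not compared, and a match is a description of letters only.

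Genes around glycolysis were read from lists written with earlier results of these data known, with counts from blocked DESeq2. None of 14 tested genes for other isoforms and helpers of the same steps passed, nor any of 11 for pyruvate entry into mitochondria, with median log2 changes of -0.08 and -0.04. Of these 11 genes, Pdha1, the target subunit of the PDK kinases, had a change of 0.02 ± 0.13 (SE). Among 9 tested glycogen genes 2 were called lower and 0 higher, with a median of -0.48. Over all tested genes 0.783% were called lower and 0.873% higher. In all 3 pairs, 6 of the glycogen genes were lower and 2 higher, against 16.5% and 17.3% of all tested genes. Gys1, muscle glycogen synthase, had 107, 160 and 279 CPM under control siRNA against 89.5, 81.1 and 162 CPM under anti-Stat3 siRNA and fell by 0.67 on the log2 scale (SE 0.17, adjusted p = 0.012). Gbe1, the glycogen branching enzyme, went from 57.8, 21.1 and 33.2 CPM to 35.6, 11.8 and 19.2 CPM, a fall in similar proportion in each pair (-0.77 ± 0.17, SE, adjusted p = 8.3e-04).

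In the pentose phosphate list 3 of 8 genes were higher in all 3 pairs and 1 was lower. Of the 8, 0 were called higher and 1 was called lower. That gene was H6pd, the enzyme of the endoplasmic reticulum, with 305, 331 and 351 CPM under control siRNA against 241, 194 and 194 CPM under anti-Stat3 siRNA (-0.66 ± 0.15, SE, adjusted p = 0.0034), while G6pdx, its cytosolic counterpart, was at 0.21 ± 0.17 and was not called. All 5 genes of the serine branch had positive fitted changes, with a median of 0.18, and none passed. Among 13 regulators 2 were called lower and 0 higher, while 7 were lower and 1 was higher in all 3 pairs. Hif1a, the oxygen-regulated subunit of HIF-1, had 498, 1039 and 1146 CPM under control siRNA against 402, 492 and 464 CPM under anti-Stat3 siRNA, with pair changes of -0.31, -1.08 and -1.31 (-0.90 ± 0.20, SE, adjusted p = 0.0012). Arrdc4, an arrestin that lowers glucose uptake, fell by 0.63 on the log2 scale (SE 0.15, adjusted p = 0.0024), and its relative Txnip was at 0.18 ± 0.14 and was not called. Nor was Myc, at -0.20 ± 0.16 (SE, adjusted p = 0.9896), a further transcription factor known to drive glycolytic genes. In blocked edgeR 0 genes of these lists were called. Of the 5 called here, blocked DESeq2 called none without pair 2 (adjusted p 0.450 to 1.00) or without pair 3 (0.482 to 1). Without pair 1 it called Hif1a, H6pd and Gys1 but neither Gbe1 (adjusted p = 0.0742) nor Arrdc4 (0.203), while blocked edgeR without pair 1 called all 5, Gbe1 at an adjusted p of 0.0098 and Arrdc4 at 0.04975.

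**Figure D5:**
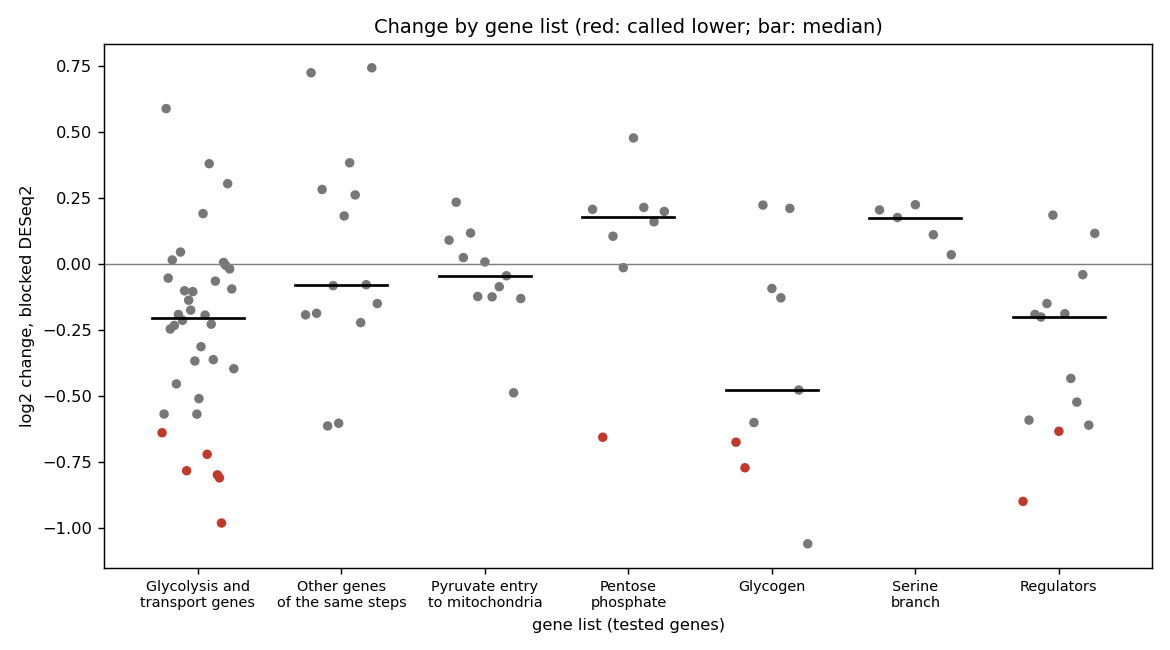
Log2 change in blocked DESeq2 of the 36 glycolysis and transport genes and of the tested genes of 6 related lists (points, red where called lower, black bars for list medians). Red points are found in the glycolysis and transport list (6), the glycogen list (2), the regulators (2) and the pentose phosphate list (1), and the medians of the pentose phosphate and serine lists lie above 0.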

How the data were processed

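Per the labels' protocols, TRIzol extracts were poly(A) selected for TruSeq libraries. The submitters' processing notes name TopHat2 2.0.10, HTSeq and the build mm9. Raw counts were deposited by the authors per gene symbol, without normalisation. The strand setting and the handling of shared reads are not given in the sources used. The table has 0 rows that name no gene, and 0 columns were left unused. Column names write "sh" where titles write "si", and columns were matched to samples by group and number.

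Counts were tested across all genes in R 4.3.3 with edgeR 4.0.16 (quasi-likelihood F test, TMM, filterByExpr at its minimum count of 10, total count of 15, group as the only term, Benjamini-Hochberg threshold 0.05). Because that fit called no gene, edgeR and DESeq2 1.42.0 with the replicate number as a block are given beside it, and limma 3.58.1 (voom) was an alternative. The titles number the samples 1 to 3 in both groups. Across genes, deviations from group means correlated at 0.83, 0.82 and 0.83 within numbers, so the numbers were taken to pair the samples. Between numbers the values were -0.16 or below, which adds little, because taking out group means pushes them down. Over the tested glycolysis and transport genes, correlations within numbers were 0.95, 0.88 and 0.86, but numbers 2 and 3 also correlated with each other, at 0.45 and 0.43. Pair changes are differences of log2 CPM with a prior count of 2. A permutation test of 3 against 3 samples cannot give a two-sided p under 0.1, nor one of 3 pairs under 0.25, so none was used. The limit behind a 0 (3 counts, counting error only) is at most 0.231 CPM. The fits were tested on simulated counts with known changes, for the sign and recovery of those changes. That test was not used to explain why the fits called different numbers of genes here.

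Exon lengths and transcripts come from GENCODE vM21 and promoters from RefSeq, both on GRCm38, matched by symbol. All 38 genes had a length and 36 a promoter. Values by sample were given for genes called in any of the 3 fits, the gene of each step with the highest level per kilobase, and genes higher in all 3 pairs. From the related lists the called genes were named, with Stat3, Hif1a and Myc; Hk3, Bsg, Pdha1, G6pdx and Txnip were added after their values were seen. The members, lists and rules were chosen with earlier results of these data known.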

Additional observations from a re-analysis of the deposited data

How the results depend on the processing

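The count of all genes called depended on the fit. Against 0 in edgeR with the group alone, it was 17 in DESeq2 with the group alone, 8 in edgeR and in limma-voom with the replicate block (8 also with DESeq2 size factors), and 220 in DESeq2 with that block. Blocked edgeR called 704 genes without pair 1, 3 without pair 2 and 0 without pair 3, and blocked DESeq2 called 432, 14 and 20. Leaving out single samples in edgeR with the group alone gave 0 to 40 calls, with 40 only without control sample 1. Of the 36 glycolysis and transport genes, 6 were called in blocked DESeq2, 6 without pair 1 in blocked DESeq2 and 6 without pair 1 in blocked edgeR, and 0 under every other setting run. The replicate block changed no other call. Their median log2 change, -0.21 with the group alone, was negative under all settings and ranged from -0.39 to -0.10 with single samples left out (lowest without anti-Stat3 sample 3, highest without anti-Stat3 sample 2). The count of 20 genes lower in all pairs was 17 with library totals only and 20 with DESeq2 size factors or a prior count of 0.5.

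None of the genes whose fitted change turned sign was called in any fit, and their change with the group alone was at most 0.36 in size. With single samples left out, each breaking a pair, the log2 change ranged from -0.26 to 0.16 for Hk1, -1.06 to 1.10 for Hk3, -0.086 to 0.17 for Pfkp, -0.34 to 0.14 for Pfkfb2, -0.47 to 0.25 for Pfkfb4, -0.46 to 0.069 for Aldoa, -1.35 to 1.05 for Aldoc, -0.16 to 0.41 for Pgam2, -0.65 to 0.37 for Eno1, -0.23 to 0.18 for Ldhb, -0.32 to 0.15 for Pdk2, -0.15 to 0.14 for Pdk3, -0.92 to 1.49 for Pdk4 and -0.16 to 0.065 for the Tigar row. With the replicate block (edgeR and DESeq2 in turn) and without pair 3, Hk3 had -0.045 and -0.12, Pfkp -0.031 and -0.025, Pfkfb2 0.095 and 0.10, Pgam2 -0.30 and -0.30, Eno1 0.19 and 0.20, Pdk3 -0.078 and -0.072, and the Tigar row 0.069 and 0.075. Without pair 2, Ldhb had 0.17 and 0.17, Pdk2 0.31 and 0.32, and Hk3 -0.027 in DESeq2. Pdk3 had -0.0064 in blocked edgeR, -0.0047 in blocked DESeq2, -0.0056 in blocked limma-voom and -0.0049 in blocked edgeR with DESeq2 size factors. It had -0.00064 in blocked edgeR without pair 1. In edgeR with a term for the naming scheme of the descriptions, coded as number 3 against numbers 1 and 2, it had -0.0028. Pdk2 had 0.0058 in blocked DESeq2, and the Tigar row 0.0073 with library totals only. The causes were not tested.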
